A study of Mus musculus with 8 samples.

Results

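Trimethylation of lysine 27 on histone H3 (H3K27me3) at gene promoters was compared between Setd2 knockout (KO) and wild-type (WT) mouse pancreatic ductal adenocarcinoma cells. The comparison used 2 of the 8 libraries of the study, 1 for each genotype, and every gene row of the deposited promoter table. The 25450 rows gave 25239 genes after rows of the same gene were joined, of which 19041 had a mean signal over the pair at or above a floor of 1.535 per kilobase and entered the ratios.

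Both libraries were made by CUT&Tag, in which an antibody on chromatin directs a transposase that cuts and tags the DNA around it. The source was labelled as cultured pancreatic tumor cells of C57BL/6 background, with the genotype Setd2 knockout in one library and Wild type in the other. According to the series text, murine lines of both genotypes were established first, whereas the title of the series mentions sorting from orthotopic tumours. The labels of these libraries do not say which applies to them. The sources used here do not give the number of lines or clones, the driver alleles of the tumours, the age of the hosts or how Setd2 was deleted. Each genotype had 1 library, so no test between genotypes was possible, and the comparison has no replicate check.

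H3K27me3 is written by Polycomb repressive complex 2 (PRC2), whose catalytic subunit is Ezh2 or Ezh1, and is bound by the Cbx proteins of Polycomb repressive complex 1 (PRC1). It covers the CpG-rich promoters of silent developmental regulators, such as the Hox genes. Setd2 is the enzyme that places trimethylation on lysine 36 of the same histone (H3K36me3) along transcribed genes, and PRC2 is hindered on histone tails that carry that mark.

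Short stretches of promoter show the kinds of sequence under the values that follow. Each is the run of 250 bases just upstream of the gene's start in RefSeq (build GRCm38.p6), whereas the deposited values average over windows of 6000 bases whose exact position is not stated. Dusp8 and Krt7 are among the strongly marked genes with the widest KO excess, and Ephb3 is among those with the widest WT excess. Their stretches are chr7:142095285-142095534 (minus strand) for Dusp8, chr15:101412153-101412402 (plus strand) for Krt7 and chr16:21204545-21204794 (plus strand) for Ephb3. Capitals mark CpG dinucleotides, of which Dusp8 has 25, Krt7 has 16 and Ephb3 has 16.
Dusp8: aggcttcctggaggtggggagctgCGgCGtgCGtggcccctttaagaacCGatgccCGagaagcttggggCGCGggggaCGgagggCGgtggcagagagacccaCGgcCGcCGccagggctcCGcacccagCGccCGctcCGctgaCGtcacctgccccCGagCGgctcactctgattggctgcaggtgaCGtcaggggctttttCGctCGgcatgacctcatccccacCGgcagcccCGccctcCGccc
Krt7: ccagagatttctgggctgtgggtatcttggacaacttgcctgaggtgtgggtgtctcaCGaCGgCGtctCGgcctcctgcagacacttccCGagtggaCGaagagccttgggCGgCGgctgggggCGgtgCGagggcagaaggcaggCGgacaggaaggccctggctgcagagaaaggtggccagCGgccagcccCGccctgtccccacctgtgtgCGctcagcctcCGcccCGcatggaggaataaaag
Ephb3: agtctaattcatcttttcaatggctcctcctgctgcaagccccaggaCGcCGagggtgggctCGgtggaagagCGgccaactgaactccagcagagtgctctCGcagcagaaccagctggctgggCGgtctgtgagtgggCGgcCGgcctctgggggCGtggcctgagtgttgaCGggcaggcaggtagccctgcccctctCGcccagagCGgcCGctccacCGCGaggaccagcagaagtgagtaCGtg

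The next set comes from 4 interferon-stimulated genes whose H3K27me3 was lower in KO. Capitals mark matches to GAAANNGAAA or its reverse complement, a letter pattern of the kind bound by interferon regulatory factors; overlapping matches run together. The stretches are chr3:142496684-142496933 (plus strand) for Gbp5, chr19:34640639-34640888 (plus strand) for Ifit1, chr4:156200819-156201068 (minus strand) for Isg15 and chr5:120907526-120907775 (minus strand) for Oas1a. Gbp5 has 1 match, Ifit1 has 2, Isg15 has 3 and Oas1a has 2. These stretches are CpG-poor, with 3 CpG dinucleotides in Gbp5 and Oas1a and 4 in Ifit1 and Isg15.
Gbp5: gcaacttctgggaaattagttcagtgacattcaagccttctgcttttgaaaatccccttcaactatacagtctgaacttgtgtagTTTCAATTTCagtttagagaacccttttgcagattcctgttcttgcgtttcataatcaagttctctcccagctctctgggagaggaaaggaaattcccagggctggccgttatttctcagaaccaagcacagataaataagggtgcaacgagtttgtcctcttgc
Ifit1: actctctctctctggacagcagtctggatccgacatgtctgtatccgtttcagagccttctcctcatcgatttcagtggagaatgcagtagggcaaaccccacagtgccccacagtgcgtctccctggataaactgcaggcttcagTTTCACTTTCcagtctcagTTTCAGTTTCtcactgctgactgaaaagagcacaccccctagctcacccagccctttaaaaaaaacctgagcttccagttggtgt
Isg15: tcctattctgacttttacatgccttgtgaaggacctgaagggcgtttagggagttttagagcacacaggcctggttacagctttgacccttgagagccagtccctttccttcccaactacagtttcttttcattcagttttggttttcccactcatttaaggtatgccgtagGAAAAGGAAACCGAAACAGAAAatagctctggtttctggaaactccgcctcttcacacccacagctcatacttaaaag
Oas1a: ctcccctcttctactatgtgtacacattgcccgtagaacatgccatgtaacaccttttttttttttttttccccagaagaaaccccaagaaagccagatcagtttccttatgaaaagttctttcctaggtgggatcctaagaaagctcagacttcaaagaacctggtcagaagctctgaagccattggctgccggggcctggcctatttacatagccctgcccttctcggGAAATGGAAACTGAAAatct

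The deposited values allowed the reads behind each promoter to be recovered. Multiplied by 6000, all promoter values (100% in both libraries, within 0.0055) were whole multiples of 1 constant per library. One read was worth 0.0550 signal per kilobase in the KO library and 0.0548 in the WT library, and these differed by 0.295%, so that the pair can be read almost as raw counts. Summed over all rows, the promoter windows came to 5416893 reads in KO and 4328440 in WT, a ratio of 1.25. Reads in overlapping windows count more than once in these sums. The median gene had 70 reads in KO and 59 in WT. Of the values, 79.6% in KO and 78.7% in WT were even numbers of reads. The counting intervals below therefore take 2 reads as 1 fragment, cover counting error at 95% confidence by the exact binomial method, and say nothing of the spread between cultures. A ratio is the log2 of KO over WT after adding the floor to both, which narrows the ratios of weak promoters. A fold is the plain quotient of both signals.

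By median acetylation, tumour epithelial markers stood highest among the sets of cell type markers. In the libraries for H3K27ac (the acetylation of the same lysine found at active promoters) that are marked vitro, the 10 tumour epithelial markers had a median promoter signal of 51.6 per kilobase in KO and 45.7 in WT. The 8 leukocyte markers had 2.15 in KO and 3.16 in WT, the 8 endothelial markers 2.202 and 3.217, and the 10 fibroblast markers 6.15 and 2.90. None of these markers was at 0. Single epithelial markers ran from 2.57 to 165 in KO and from 2.87 to 147 in WT. In the acetylation libraries without the vitro label the epithelial medians were 35.3 and 22.1, and the fibroblast medians 12.5 and 8.07. Fibroblast marker acetylation was thus higher in KO in both pairs, and its part in the H3K27me3 values was not tested. In the H3K27me3 libraries themselves the epithelial markers had medians of 23.1 in KO and 14.25 in WT, and the fibroblast markers 6.51 and 5.26. The endothelial markers had 24.2 and 12.9 there, and the leukocyte markers 11.8 and 18.5. In such bulk libraries, fewer cells with a mark and less of it per cell cannot be told apart.

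H3K27me3 was spread very unevenly over genes, and the upper end was higher in KO. The median promoter carried 3.85 per kilobase in KO and 3.23 in WT, the 95th percentile 51.8 and 41.7, and the 99th percentile 134 and 89.6. The 10% of genes with the most signal held 59.4% of it in KO and 54.5% in WT. At the bottom, 972 genes (3.85%) had no read in KO and 1344 (5.33%) had none in WT, 393 of them in both. Levels in the libraries ran together, with a Pearson correlation of 0.83 and a Spearman correlation of 0.73 between log2 levels across the 19041 genes, which are not independent replicates.

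Over all genes tested the median ratio was 0.18, with a KO excess of 2-fold or more in 2934 genes (15.4%) and a WT excess of that size in 1317 (6.92%). At a limit of 1.5-fold, KO was higher in 5736 genes (30.1%) and lower in 3192 (16.8%). The surplus of higher over lower genes rests on the authors' scale. Centring the ratios on their median, which shifts every ratio by 0.18, gave 2042 higher and 1955 lower genes, a share of 51.1% higher among those called against 69.0% as deposited. Quantile normalization gave 51.7% and removal of the trend with level 53.4%. The position of a gene or list relative to that common shift is thus less bound to the scale. It still holds the differences by level and by chromosome described below. Each list median below is given on the deposited scale, to be set against 0.18. For lists of mostly strongly marked genes the median of the strongest decile by level, 0.43, is the nearer mark. List counts at 1.5-fold are to be set against 30.1% higher and 16.8% lower.

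**Figure D1:**
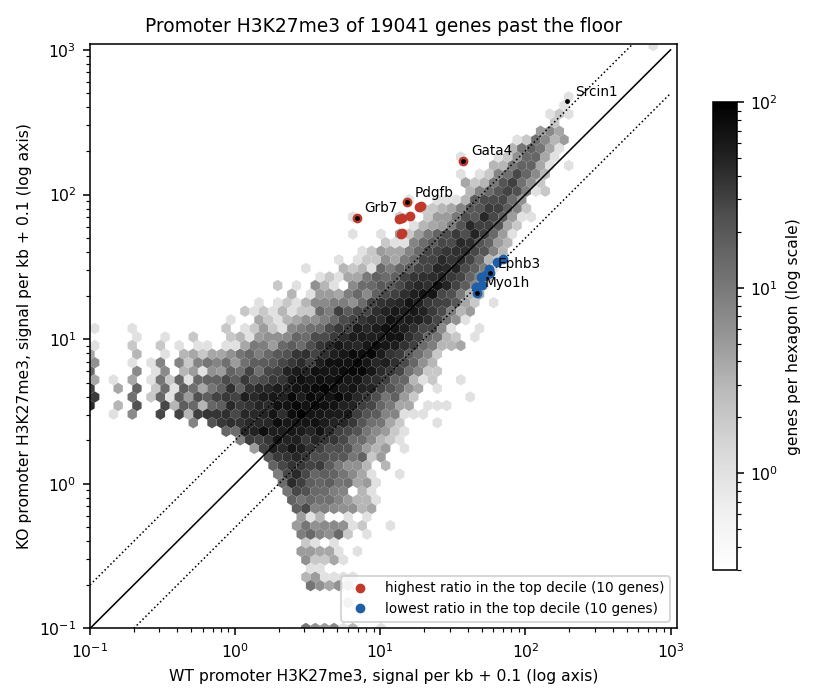
Promoter H3K27me3 in KO (vertical axis) against WT (horizontal axis) as signal per kilobase plus 0.1, both on log axes, for the 19041 genes tested. Grey shades count genes per hexagon on a log scale, the solid line marks equality and the dotted lines 2-fold, red points are the 10 highest and blue points the 10 lowest ratios among the top decile by level, and the upper end of the cloud bends above the equality line.

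The ratio depended on the level in a curve with 2 high ends. From the weakest to the strongest decile of genes by mean level, the median ratio went through 0.21, 0.26, 0.21, 0.16, 0.11, 0.07, 0.05, 0.07 and 0.10 to 0.43. The strongest decile, 1904 genes with a mean of at least 33.3 per kilobase, had medians of 63.8 in KO and 49.3 in WT. In 1549 of those 1904 genes KO was above WT, and a 2-fold excess was seen for KO in 200 (10.5%) and for WT in 5 (0.263%). Ratios varied less there, with an SD over genes of 0.50 against 0.84 in the weakest decile. The SD that counting of fragments alone would give was 0.0896 and 0.257 in those deciles, below the observed spread in both.

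Strongly marked promoters with the widest KO excess came from genes of several kinds. Grb7, an adaptor that binds receptor tyrosine kinases, had 68.5 per kilobase in KO and 6.797 in WT (1247 and 124 reads). That is 10.1-fold, with a counting interval of 7.75 to 13.3. Pdgfb, which encodes a growth factor for mesenchymal cells, had 88.1 and 15.2, a 5.804-fold difference with an interval of 4.85 to 7.03. Atf3, a stress-responsive transcription factor, had 67.7 and 13.3, which is 5.10-fold with an interval of 4.19 to 6.25. Gata4, a transcription factor of endoderm and heart, had 170.2 and 37.0, or 4.59-fold with an interval of 4.08 to 5.18. Krt7, a keratin of ductal epithelium also printed above, had 53.7 and 13.9, which is 3.86-fold with an interval of 3.16 to 4.72. In each of these genes the counting interval lay above 3, and the log2 ratio of Grb7 ranged from 2.397 to 3.277 over the alternative settings. The other genes of this set were Gprc5c, Galr3, Smtnl2, Dusp8 and Otop2, at 3.83-fold (Otop2) to 4.91-fold (Gprc5c). Dusp8, printed above, encodes a phosphatase of mitogen-activated protein kinases and had 82.9 in KO and 18.9 in WT, and Galr3 encodes a receptor for the neuropeptide galanin. The 10 genes lie on chromosomes 1, 7, 11, 14 and 15, and 4 of them (Grb7, Gprc5c, Smtnl2 and Otop2) on chromosome 11.

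Genes within 100000 bases also had a KO excess around some of these promoters and not around others. For adjacent starts 50000 to 100000 bases apart, the Pearson correlation of ratios over all pairs was only 0.07. On the Gata4 side, Neil2 (77836 bases away) had 13.5 per kilobase in KO and 5.70 in WT. Fdft1 (92114 bases away) had 4.07 and 0.658 (74 and 12 reads). Around Pdgfb, Syngr1 (76357 bases away) had 31.1 and 11.2, Cbx7 (43858 bases) 12.1 and 5.37, and Mir7213 (15951 bases) 12.2 and 4.38. D730003I15Rik, which starts 6415 bases from Atf3, had 16.4 and 3.62. KO was thus higher at each of these neighbours, whereas Rpl3 and Snord43 near Pdgfb, both too weak for a ratio, had 14 and 4 reads in KO and 40 in WT each. Around Grb7, the start of Mien1 lies 7403 bases away and had 2.64 per kilobase in KO and 1.10 in WT (48 and 20 reads). Erbb2, the receptor gene 33924 bases away, had 12.4 and 13.2, and Pgap3 had 2.86 and 3.45. Ikzf3, on the other side at 99637 bases, had 45.4 and 59.0. Farther out on the Erbb2 side KO was higher again, with 31.0 and 18.3 at Pnmt, 20.2 and 7.62 at Tcap, and 102 and 46.4 at Ppp1r1b. Around Krt7, Krt87 had 62.6 and 34.4, Krt80 had 5.28 and 4.50, and Krt86 had 16.0 and 29.3, so neighbouring keratin genes differed in direction.

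Strongly marked promoters with less signal in KO were fewer, and differed by less. Myo1h, an unconventional myosin gene, had 20.7 in KO and 46.5 in WT, which is 2.25-fold higher in WT with an interval of 1.89 to 2.68. Spsb1, which encodes a substrate receptor of a ubiquitin ligase, had 23.6 and 50.4, or 2.13-fold higher in WT (1.81 to 2.52). Ephb3, the ephrin receptor gene printed above, had 28.4 and 56.5, or 1.99-fold higher in WT (1.71 to 2.32). Cdx1, an intestinal homeobox factor, had 35.8 and 69.9. The remaining genes of the 10 with the lowest ratios were Zfp503, Pvalb, Tshr, Sstr5, Ccna1 and Adora2b, the last at 1.84-fold higher in WT. Ephb3 also carried more vitro H3K27ac in KO (27.5 per kilobase against 5.803), whereas Cdx1 carried less (3.09 against 7.13). In the acetylation libraries without the vitro label Cdx1 carried more in KO (13.6 against 8.59), and so did Ephb3 (48.1 against 15.2). In the whole decile, KO was 1.5-fold or more above WT at 703 genes and below it by that much at 55.

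**Figure D2:**
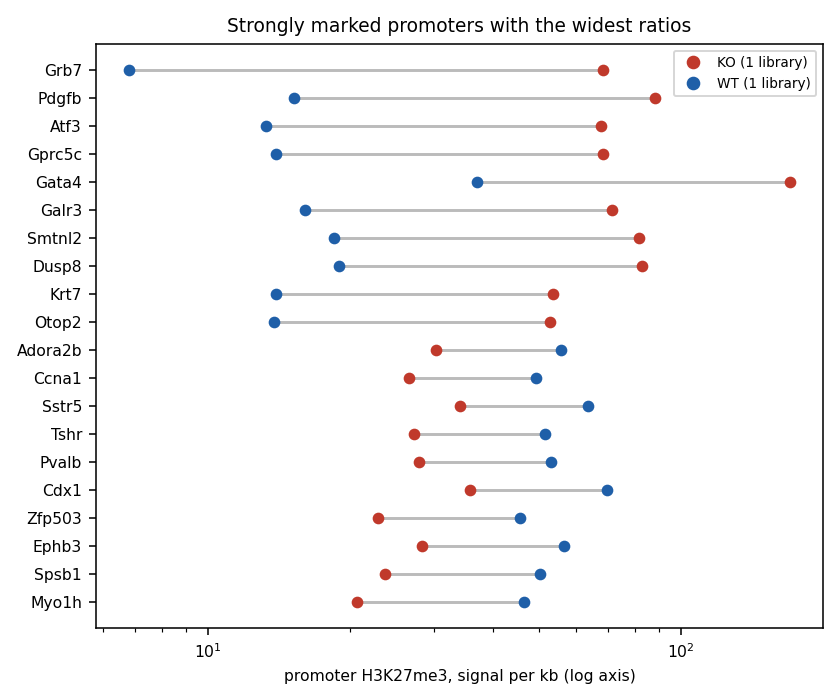
Promoter H3K27me3 in signal per kilobase (log axis) of the 10 highest and 10 lowest ratios among the top decile of genes by mean level, with 1 red point for the KO library and 1 blue point for the WT library. Grb7 spans 6.797 to 68.5, and the WT excess of the lower 10 genes is at most 2.25-fold.

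The widest differences in signal lay at promoters that were already among the most marked in WT. Srcin1, a regulator of Src kinase signalling in neurons, had 439.7 in KO, the highest level there apart from the ribosomal repeat row, and 193.7 in WT. Lbx1, a homeobox gene of muscle precursors and spinal cord, had 333 and 149.96, and Neurod2, a neuronal basic helix-loop-helix factor, had 336 and 165. Kcnh3, a potassium channel gene, had 333 and 156, and Ankrd63 had 367 and 187. Vax2, an eye homeobox gene, had 341 and 172, and its antisense gene Vax2os, which was counted over a largely shared stretch, 329 and 170.

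These pairs of values all lie close to 2-fold, but the excess rests on the scale: over the alternatives the ratio of Srcin1 ranged from 0.05 to 1.18 and that of Lbx1 from 0.37 to 1.15. Other genes of the same height differed less, such as Bcan, which encodes a brain proteoglycan (222 and 188), and Nptx1, a neuronal pentraxin gene (234 and 188). On the lower side, Chrna4, a nicotinic receptor subunit gene, had 72.1 in KO and 116 in WT, and Mmp9, a matrix protease gene, 107 and 138. Zcchc24, a zinc finger gene, had 11.7 and 49.9, a 4.28-fold difference in favour of WT, and its vitro H3K27ac was 25.8 in KO and 4.37 in WT. H2-Q6 and H2-Q8 had identical reads (754 and 1313). Like Speer4d (154 and 689 reads, 4.46-fold in favour of WT), they have near-identical copies among which reads cannot be assigned with certainty.

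The ratio followed the CpG content of the promoter among weakly marked genes, and hardly among strongly marked ones. Promoter sequence was found for 14138 of the 19041 genes tested (74.3%), so classes by sequence describe that share only. CpG-rich promoters (n = 4235) had a median ratio of 0.38, intermediate ones (n = 3788) 0.27 and CpG-poor ones (n = 6115) 0.00. A promoter was called CpG-rich at a CpG observed-to-expected ratio of at least 0.75 with at least 55% G and C, and CpG-poor below 0.48. A 2-fold KO excess was seen at 21.9% of CpG-rich and 9.55% of CpG-poor promoters, and a 2-fold WT excess at 5.03% and 8.68%. In the 3 weakest deciles the medians of the classes were 0.40, 0.34 and 0.00. In the strongest decile they were 0.44, 0.45 and 0.40.

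The ratio was also higher at more acetylated promoters. From the lowest to the highest quintile of genes by mean vitro H3K27ac, the median H3K27me3 ratio was 0.00, 0.08, 0.18, 0.33 and 0.36, and the share at least 2-fold higher went from 7.57% to 25.6%. With the acetylation libraries that lack the vitro label the medians were -0.02, 0.07, 0.20, 0.32 and 0.39. The most acetylated quintile had little H3K27me3 in either library, at 4.07 per kilobase in KO and 2.96 in WT. The strongest decile by H3K27me3 held 230 genes that were also in the 2 highest quintiles of vitro H3K27ac, and their median ratio was 0.58, with 60 (26.1%) at least 2-fold higher, against 0.42 and 7.24% in the 1063 genes of low acetylation. The quintiles share the acetylation libraries of the same genotypes, and these values are a description of the libraries.

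**Figure D3:**
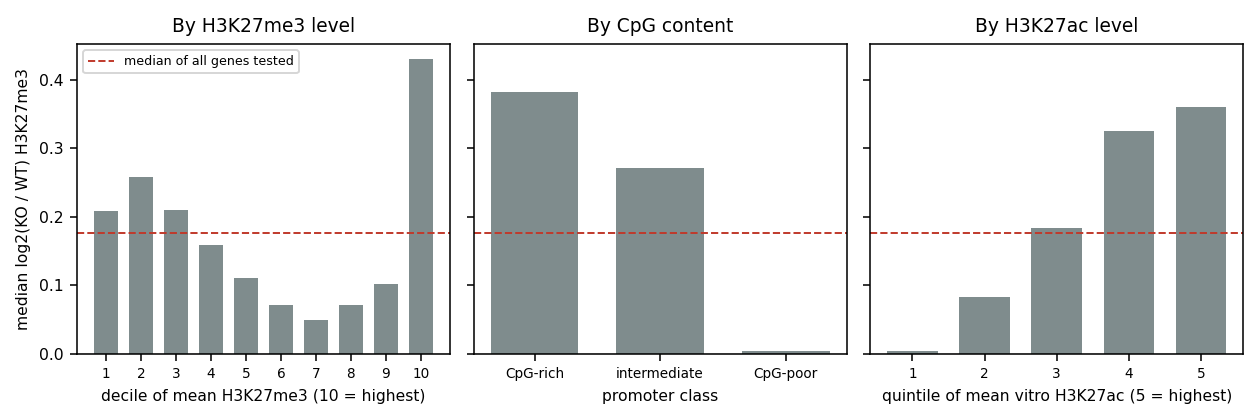
Median log2 ratio of promoter H3K27me3, KO over WT, by decile of mean H3K27me3 (left), by CpG class of the promoter (middle) and by quintile of mean vitro H3K27ac (right), with the median over all genes tested (0.18) as a dashed red line. The bars are high at the strongest decile (0.43), at CpG-rich promoters (0.38) and at the most acetylated quintile (0.36), and near 0 at CpG-poor and least acetylated promoters.

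Homeobox gene clusters carried high H3K27me3 in both libraries and more in KO. All 39 Hox genes, which give cells their position along the body axis, passed the floor, and 34 of them (87.2%) were at least 1.5-fold higher in KO against 30.1% of all genes, with none lower against 16.8%. All 39 lay in the strongest decile by level, where KO was 1.5-fold or more above WT at 703 of 1904 genes. KO was below WT by that much at only 55 genes of that decile. Lower genes were thus rare in the whole decile and not only among Hox genes. The median ratio of the Hox genes was 0.72, against 0.43 in that decile. Their median levels were 159 per kilobase in KO and 87.2 in WT. Hoxc8 had the highest ratio, at 212 and 81.3, followed by Hoxc10 at 215 and 93.7. Hoxd8 had 120 and 53.4, a 2.24-fold difference. Hoxb1 had the lowest ratio, at 52.9 and 48.7, with a counting interval for its fold of 0.95 to 1.24 that includes 1.

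The Hox clusters differed among themselves by little. The median ratio was 0.91 for the 9 genes of the C cluster, 0.71 for the 11 of the A cluster, 0.70 for the 10 of the B cluster and 0.63 for the 9 of the D cluster. Starts in a cluster lie close together, so that windows overlap and the genes are not separate measurements. Under quantile normalization the Hox median was 0.19, and with the trend with level removed 0.16, against 0.72 on the deposited scale.

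Other developmental transcription factor genes showed a like but less even pattern. Of a list of 82 homeobox, paired-box and T-box genes, 42 (51.2%) were at least 1.5-fold higher and none lower, with a median ratio of 0.60. Of these 82 genes, 78 lay in the strongest decile by level, whose median was 0.43. The list covers these families only in part: of all 12 Tbx genes tested, 7 were higher and 1 lower. Meis2, a cofactor of Hox proteins, stood apart at 19.6 in KO and 3.40 in WT, whereas its relative Meis1 had 11.05 and 13.6. Pax3, a regulator of neural crest and muscle, had 225 and 100.1, and Nkx2-5, a heart factor, 215 and 97.7.

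Not every family of these genes was higher. The Dlx genes of forebrain and face (n = 6) had a median of 0.81 and the Lhx genes (n = 8) 0.73. The Irx genes (n = 6) had 0.23, and none of the 6 reached 1.5-fold. Tlx3 (136 and 129) and Isl1, a factor of islet and motor neurons (48.2 and 49.7), were close to equal at high levels. Of the 47 genes tested of a list of SOX and FOX genes, 22 were higher and none lower, with a median of 0.49. The strongest decile by level held 34 of the 47. Over every SOX and FOX gene in the table, which that list covers only in part, 8 of 20 SOX genes tested were higher and 1 lower, and 18 of 41 FOX genes higher and 1 lower. Foxa3, a liver and gut factor, had 26.2 and 8.99, Sox9, a factor of ducts and progenitors, 27.9 and 14.6, and Sox11 29.2 and 43.1. Under quantile normalization the medians of these lists were 0.08 (homeobox, paired-box and T-box genes) and 0.12 (SOX and FOX genes).

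Among factors of endoderm and pancreas, more members were higher than lower in KO. Of 27 genes tested, 13 were at least 1.5-fold higher and 2 lower, with a median ratio of 0.56. The strongest decile by level, with a median of 0.43, held 21 of the 27. Under quantile normalization the median was 0.14, with the trend with level removed 0.15, and centred per chromosome 0.23. Beside Gata4, Gata5 had 90.4 in KO and 31.1 in WT, and Gata6 had 33.4 and 15.2. Onecut1, a factor of liver and pancreas development, had 153 and 57.2. Genes of the same list at like levels differed little, such as Cdx2, an intestinal factor (98.2 and 98.98), and Neurog3, the factor that starts islet cell formation (49.7 and 50.1). Bhlha15, a factor of secretory acinar cells, had 1.10 and 5.26, with 20 and 96 reads. Gata4 had 1.03 per kilobase of vitro H3K27ac in KO and 54.8 in WT, the opposite order to its H3K27me3. In Onecut1 the vitro acetylation was 4.86 and 9.54.

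Genes of epithelial junctions had the highest median of the lists of roles described here. Of 44 tested, 32 (72.7%) passed 1.5-fold on the KO side and 1 on the WT side, with a median ratio of 0.89 and median levels of 19.6 in KO and 9.84 in WT. Llgl2, a polarity protein gene, had 21.3 and 2.41 (388 and 44 reads), an 8.84-fold difference with a counting interval of 5.68 to 14.4. Tjp1, which encodes the tight junction scaffold ZO-1, had 8.25 and 0.328 (150 and 6 reads), so its fold is poorly bounded at 8.26 to 124. F11r, a junctional adhesion molecule gene, had 10.7 and 1.37, Dsg2, a desmosomal cadherin gene, 16.5 and 3.07, and Lsr 14.1 and 3.07.

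Cdh1, which encodes the adherens junction protein E-cadherin, had 38.5 in KO and 20.4 in WT (701 and 372 reads), a 1.89-fold difference with an interval of 1.58 to 2.27. Its vitro H3K27ac was 5.72 in KO and 24.02 in WT. Cldn1 was the member lower in KO, at 14.3 and 22.7, and Cldn4 was nearly equal, at 15.5 and 15.3. The median of the list lay between 0.65 and 1.00 under every alternative scale, floor and filter tried, so it kept its side of the common shift. Among 25 keratins 7 were higher and 1 lower (28.0% and 4.0%, against 30.1% and 16.8% of all genes). The keratin median was 0.33, and 0.03 with ratios centred per chromosome. Beside Krt7, Krt8 had 18.4 and 6.36 and Krt19 had 8.13 and 2.52, whereas Krt86 was lower.

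Mesenchymal genes lay on the other side of the common shift. Of 25 tested, 3 were at least 1.5-fold higher and 7 lower (28.0%, against 16.8% of all genes), with a median ratio of -0.22. Snai1, a repressor of Cdh1, had 9.90 in KO and 34.0 in WT (180 and 621 reads), or 3.44-fold higher in WT with an interval of 2.71 to 4.39. Zeb2, another repressor of epithelial genes, had 8.85 and 24.7, Twist2 16.7 and 38.4, Zeb1 4.40 and 8.61, and Sparc, a matrix protein gene, 4.12 and 10.1. The opposite was seen at Itga5, an integrin of fibronectin binding, with 21.1 and 3.56, and at Tagln, an actin-binding protein gene, with 5.61 and 1.75. The 25 collagens had a median of 0.05, with 6 higher and 5 lower, and the 15 mucin and trefoil genes also 0.05, with 5 higher and 4 lower.

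Among interferon-stimulated genes and genes of MHC class I and peptide loading, more members were lower than higher in KO, mostly at low levels of the mark. Of 50 interferon-stimulated genes 39 passed the floor, of which 6 were at least 1.5-fold higher and 17 (43.6%) lower, with a median ratio of -0.23. Gbp5, a guanylate-binding protein gene, had the most signal of those that were lower, at 5.99 in KO and 23.7 in WT (109 and 433 reads), or 3.96-fold higher in WT with an interval of 2.95 to 5.48. Parp14 had 0.880 and 7.89, Ifit2 2.09 and 9.43, Oas1g, of the oligoadenylate synthetases that sense viral RNA, 3.19 and 12.4, and Ifit1 2.97 and 9.10. In the opposite direction, Trim25 had 72 reads in KO and 2 in WT, and Irf1 46 and 10. Oasl1 had 64 reads in KO and none in WT.

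The letter pattern marked in the sequences above was present in 18 of the 29 interferon-stimulated promoters with sequence (62.1%), against 3.09% of the 14138 promoters of genes tested and 3.49% of all 27025 promoters of that length in the sequence table. Among the 18 with a match, 10 were lower and 3 higher, with a median ratio of -0.79. Among the 11 without one, 1 was lower and 3 higher, with a median of 0.16. The 10 tested genes of the list with no sequence in the table had 6 lower and none higher, with a median of -0.63, so the lower values were not limited to promoters known to hold a match. Over all genes tested, the 437 promoters with a match had a median of 0.03, with 112 higher and 97 lower, and the 13701 without one 0.19. A match describes letters in a window of 300 bases and shows no binding.

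Of 22 genes of MHC class I and peptide loading, 9 (40.9%) were at least 1.5-fold lower and 5 higher, with a median of -0.20. Nlrc5, the transactivator of class I genes, had 0.440 in KO and 11.9 in WT (8 and 218 reads), which is 27.2-fold higher in WT with an interval of 10.3 to 101.5. Its neighbour 9330175E14Rik, which starts 747 bases away, had 30 and 212 reads. Tap1, a peptide transporter subunit, had 2.42 and 10.1, and the immunoproteasome subunits Psmb9 and Psmb8 had 2.75 and 9.97 and 0.715 and 3.95. Tap1 and Psmb9 start close together, so their windows may share reads. Some genes of the same list with strong marking went the other way, such as H2-Q10 (90.1 and 41.2) and H2-Q2 (99.7 and 61.1), which have near-identical copies. The class I genes H2-Q6 and H2-Q8, also strongly marked and with such copies, were lower in KO, at a ratio of -0.77 each. Of 14 genes of MHC class II, 4 (28.6%) were higher and 2 (14.3%) lower, near the shares of all genes (30.1% and 16.8%). The median ratio of these 14 was 0.11, with median levels of 14.5 in KO and 16.2 in WT. H2-Aa, a class II chain gene, had 9.29 and 16.6.

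Of 27 chemokine and colony-stimulating factor genes, 6 were lower and 3 higher, with a median of -0.23. Cxcl10, an interferon-induced attractant of T cells, had 1.10 and 7.78 (20 and 142 reads), and the neutrophil attractants Cxcl2 and Cxcl3 had 4.29 and 15.9 and 0.990 and 6.47. Cxcl12, a stromal chemokine gene, had 18.6 in KO and 3.67 in WT. The 15 leukocyte markers had a median of -0.42, with 6 lower and 3 higher, at promoters with a median of 11.8 per kilobase in KO and 16.7 in WT.

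Sterol and fatty acid synthesis genes were higher in KO at low levels. Of 33 tested, 20 (60.6%) were at least 1.5-fold higher and 4 lower, with a median ratio of 0.84 and median levels of 4.07 in KO and 2.30 in WT. Soat1, which esterifies cholesterol, had 18.97 and 4.28 (345 and 78 reads), Insig1, a brake on sterol synthesis, 10.8 and 2.08, and Acss2, which makes acetyl-coenzyme A, 33.2 and 10.5. Acacb, an acetyl-coenzyme A carboxylase gene, was lower at 2.198 and 13.6 (40 and 248 reads). Elovl1, a fatty acid elongase gene, had no read in KO and 108 in WT, so no plain fold could be formed. The median of the list lay between 0.35 and 1.11 over the alternatives.

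The Wnt, Notch, TGF-beta and BMP lists had medians near that of all genes. For the Wnt list it was 0.22 (12 of 46 higher, 3 lower), for Notch 0.16 (6 of 21 higher, 3 lower) and for TGF-beta and BMP 0.11 (10 of 36 higher, 4 lower). Hedgehog genes had a higher median of 0.49, with 5 of 12 higher and none lower. In the TGF-beta list Gdf15, a stress-induced ligand, had 0.660 in KO and 7.67 in WT (12 and 140 reads), and Smad6, an inhibitory Smad, 15.4 and 5.37. Bmp2 had 27.2 and 31.5. Among 16 EGFR family and adaptor genes 5 (31.25%) were higher and 3 (18.75%) lower, near the shares of all genes (30.1% and 16.8%). Beside Grb7 the widest ratio in that list was that of Lrig1, a negative regulator of these receptors, with 9.02 and 1.31. Erbb3 had 24.4 and 9.87.

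Cell cycle inhibitors went both ways about as often as genes in general. Of the 21 CDK inhibitors and tumour suppressors, 9 lay below the floor. Of the 12 tested 3 were higher and 2 lower, near the shares of all genes (30.1% and 16.8%). Cdkn2a, whose silencing by Polycomb lets cells escape senescence, had 24.1 in KO and 29.8 in WT (439 and 544 reads). Cdkn1c had 28.4 and 9.54, Cdkn2d 8.36 and 1.15, and Apc 0.330 and 4.93. Axon guidance genes went both ways, with 10 of 55 higher and 11 lower at a median of 0.20: Efna1, an ephrin ligand gene, had 13.3 and 1.31, and Sema3a, a secreted semaphorin gene, 2.03 and 12.7.

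**Figure D4:**
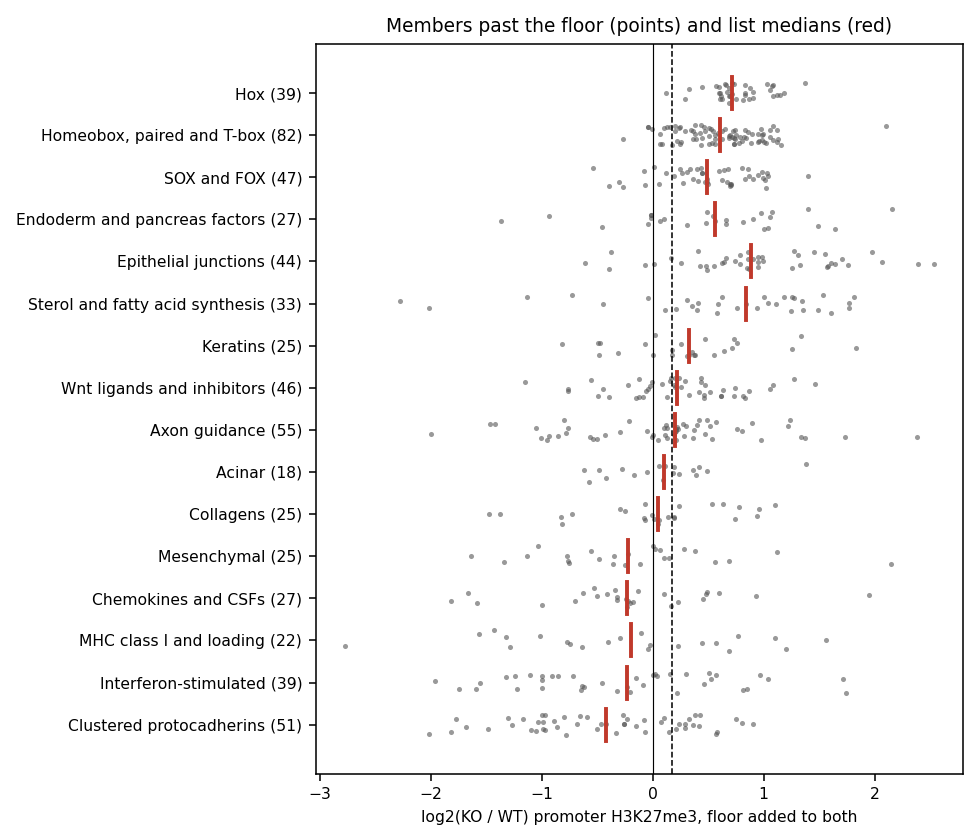
Log2 ratio of promoter H3K27me3, KO over WT with the floor added to both, for members of 16 gene lists past the floor (points, number in brackets) with list medians as red bars, 0 as a solid line and the median of all genes tested (0.18) as a dashed line. Junction genes (0.89), sterol and fatty acid genes (0.84) and Hox genes (0.72) have the highest medians, and the clustered protocadherins (-0.42) the lowest of the 16 on the deposited scale.

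Genes for PRC2 subunits and H3K27 demethylases had mostly weak marking, with medians of 3.08 in KO and 3.51 in WT. Ezh2 had 2.42 in KO and 2.03 in WT (44 and 37 reads), with a counting interval for its fold of 0.63 to 2.42. Of 12 genes for PRC2 subunits and H3K27 demethylases, 4 (33.3%) were at least 1.5-fold higher and 2 (16.7%) lower. Over all genes the shares were 30.1% and 16.8%. Epop, a PRC2 accessory gene, was strongly marked, at 262 and 138. Phf1, another accessory subunit, had 7.48 and 0.877, and Suz12 and Eed, core subunits, had 56 and 10 and 50 and 6 reads. Aebp2 was lower, at 2.09 and 6.36. The 19 PRC1 genes had median levels of 12.1 in KO and 5.92 in WT, and 7 (36.8%) were higher and 2 (10.5%) lower. Cbx8 had 234 and 115, Bmi1 14.95 and 5.04, and Rybp 6.49 and 19.8. Setd2 had 6.05 and 2.41 (110 and 44 reads), a 2.51-fold difference with an interval of 1.504 to 4.318. The Setd2 promoter value shows no deletion within the gene and does not check the label.

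The ratios shifted by chromosome. The median was 0.46 on chromosome 1, 0.33 on chromosome 2, 0.32 on chromosomes 11 and 19, and 0.05, 0.02 and -0.01 on chromosomes 3, 14 and 18. Some of these chromosomes were shifted the same way in the other KO and WT pairs. Chromosome 1 lay 0.28 above the median of all genes in H3K27me3, 0.24 in H3K27ac without the vitro label, 0.47 in vitro H3K27ac and 0.23 in gene-body H3K36me3. Chromosome 18 lay at -0.19, -0.08, -0.38 and -0.14, and chromosome 3 at -0.13, -0.08, -0.29 and -0.18. Chromosome 2 lay at 0.15 in H3K27me3 but at 0.01, -0.06 and -0.06 in the other pairs, in the same order. Chromosome 14 lay at -0.16, -0.07, -0.17 and 0.01, chromosome 11 at 0.14, 0.11, 0.03 and 0.01, and chromosome 19 at 0.15, 0.16, 0.15 and -0.03. Over the 20 chromosomes the Pearson correlation of the H3K27me3 shift was 0.80 with that of H3K27ac without the vitro label, 0.79 with vitro H3K27ac and 0.68 with H3K36me3. In the same order, the Spearman correlations were 0.76, 0.61 and 0.53. On the same side of the median of all genes as in H3K27me3 lay 15, 14 and 11 of the 20 chromosomes.

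These points share cell lines, genotypes and chromosomes, and the correlation is a description. The part of the chromosome shifts in the gene values was not tested. In the strongest decile, 16 of 86 genes on chromosome 1 had a 2-fold KO excess, with a median of 0.71, and none of 30 on chromosome 18, with a median of 0.13. The clustered protocadherins, related adhesion genes on chromosome 18, had 23 of 51 lower and 3 higher with a median of -0.42. That median was -0.25 with ratios centred per chromosome and -0.15 with 1 gene kept for each shared window. With each ratio centred on the median of its own chromosome, which left 14367 genes with coordinates, 1551 were higher and 1453 lower. The chromosomes of 7265 rows are not in the table's annotation and were not used here.

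**Figure D5:**
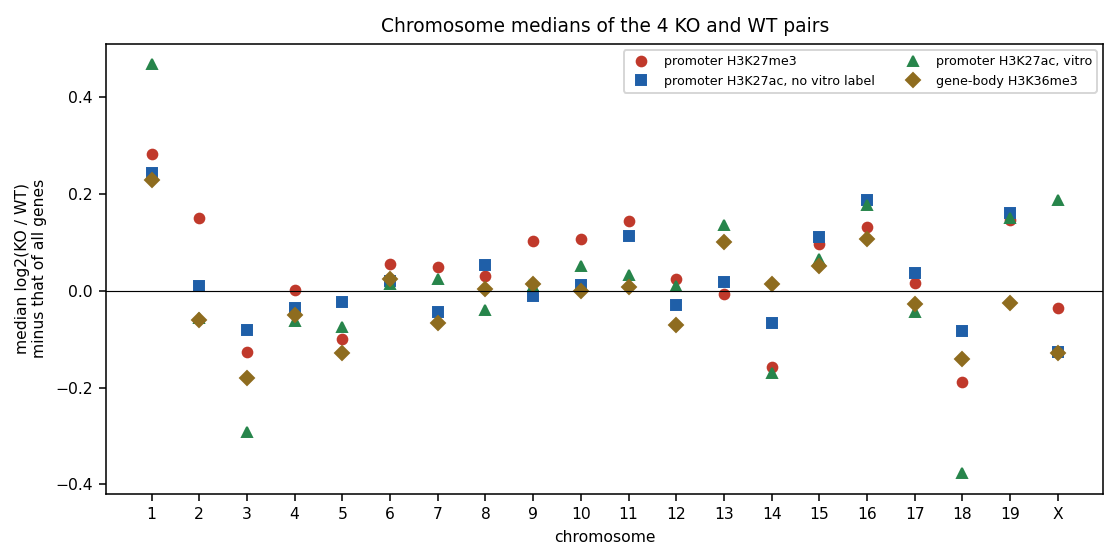
Median log2 ratio, KO over WT, of each chromosome minus that of all genes, for promoter H3K27me3 (red circles), promoter H3K27ac without the vitro label (blue squares), vitro promoter H3K27ac (green triangles) and gene-body H3K36me3 (brown diamonds), 1 KO and 1 WT library each. Chromosome 1 lies above 0 and chromosomes 3 and 18 lie below 0 in the 4 pairs.

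Neighbouring genes shared their ratios only over short distances. For starts within 1000 bases of each other (932 pairs) the Pearson correlation of the ratios was 0.90, and these genes largely share a window. For starts 1000 to 6000 bases apart (659 pairs) it was 0.59, for 6000 to 20000 bases (2024 pairs) 0.18 and for 20000 to 50000 bases (3148 pairs) 0.09. With 1 gene kept for each run of starts within 6000 bases, the 2-fold limit was passed by 2066 of 12773 genes on the KO side and 776 on the WT side.

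A higher H3K27me3 signal went with lower acetylation at a minority of promoters. Of the 200 strongly marked genes with a 2-fold KO excess, 174 had enough vitro H3K27ac for a ratio, and 14 of these (8.05%) were at least 2-fold lower in it, against 2.98% of the strongest decile as a whole and 3.57% of all genes with such a ratio. Grb7, at 6.52 per kilobase of vitro H3K27ac in KO and 54.4 in WT, and Gata4 were 2 of them. In the libraries without the vitro label the share lower in acetylation was 8.65% among 185 such genes, 10.2% in the whole decile and 4.32% of all genes with a ratio, so the order was not the same there. There Grb7 had 22.8 and 25.2, and Gata4 3.29 and 19.1. Across genes, the H3K27me3 ratio hardly correlated with that of vitro H3K27ac (Pearson -0.07 over 14974 genes), of H3K27ac without the vitro label (0.03 over 14786) or of gene-body H3K36me3 (0.00 over 12423).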

How the data were processed

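Promoter H3K27me3 was measured by CUT&Tag in 1 Setd2 KO and 1 WT library. The authors deposited 1 table of signal (mean coverage) per promoter or gene body. The submitters' processing notes name HOMER, MACS2 (2.2.7.1), Bowtie2 (2.4.2) and build mm10. The sources used here do not give settings, duplicate filters, the promoter window or the scaling target. From the values, a window of 6000 bases is implied. Groups came from the sample titles. Signal was multiplied to a value per kilobase. Rows of 1 gene were joined at the row with the most signal, and symbols updated to RefSeq (103 rows by an older symbol, 125 unmatched).

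The floor is the 25th percentile of positive values; it was added before log2 and filtered genes by their mean. Lists used a 1.5-fold limit and the count of all genes a 2-fold limit. With whole reads recovered in 100% of values, a count test still could not be run, because each genotype had 1 library and no residual degrees of freedom. Named genes were the 10 highest and 10 lowest ratios in the strongest decile, the 10 widest differences each way, the 5 highest levels per library, up to 5 members per list in each direction, and members a sentence turns on; neighbours, near-equal members and the acetylation beside them were chosen after their values were seen. Members and lists were chosen with earlier results of these data known. In simulated libraries with 200 genes changed, the steps were recovered and the fold limit found most changes. That checks the steps only, and gives no error rate for the calls in this pair, which has 1 library for each genotype. Python 3.11.15 with numpy 2.4.6, pandas 2.3.3 and scipy 1.17.1 was used; 9 other settings fixed beforehand and 2 chosen after seeing the data (chromosome centring, 1 gene per shared window) were run.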

Additional observations from a re-analysis of the deposited data

How the results depend on the processing

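Scale decided the balance of directions. The median ratio over genes (0.18) became 0 by construction after centring, centring per chromosome or removal of the trend with level, and -0.01 (-0.0146) under quantile normalization, which makes both libraries alike by construction. The median of the strongest decile (0.43) became 0.25 after centring, 0.20 per chromosome, 0 with the trend removed and -0.01 (-0.00548) under quantile normalization. Genes at least 2-fold higher (2934) numbered 420 with 5 times the floor added, 1473 with the floor at the median and 1551 per chromosome. Genes at least 2-fold lower (1317) numbered 73, 700, 2181 with 0.2 times the floor and 776 with 1 gene per shared window. The contrast of CpG-rich and CpG-poor promoters (0.38) was 0.19 with 5 times the floor. That of the highest and lowest quintile of vitro H3K27ac (0.36) was 0.16 with 5 times and 0.47 with 0.2 times the floor. Chromosome 1 (0.28) was 0.14 with 5 times the floor, and chromosomes 1, 14 and 18 were 0 per chromosome by construction. Joining rows by their mean moved the median of the clustered histones from -0.08 to 0.01, and keeping only genes above 0 in both moved that of the sterol list from 0.84 to 0.89. The Hox median ranged from 0.16 to 0.85, that of junction genes from 0.65 to 1.00, and that of interferon-stimulated genes from -1.16 to -0.09 over the alternatives. Counting limits weak promoters: the floor corresponds to 27.9 reads in KO. No paired analysis was possible because each genotype had 1 library. No library could be left out for the same reason.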

Other observations

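Housekeeping and receptor gene families gave values outside the comparisons above. Of 80 ribosomal protein genes 29 lay below the floor, and of the 51 tested 20 were at least 1.5-fold higher and 9 lower, with a median ratio of 0.33. Of 83 oxidative phosphorylation genes 52 were tested, with 20 higher, 9 lower and a median of 0.34. Of 1110 olfactory receptor genes 498 were tested, with 99 higher and 135 lower (27.1%, against 16.8% of all genes) and a median of -0.10. The 260 Zfp zinc finger genes tested had a median of 0.26, with 91 higher and 37 lower, and the 325 solute carriers 0.12, with 94 higher and 54 lower.

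Imprinted genes, which are expressed from one parental allele, went both ways, with a median of 0.01. Of 27 tested, 10 (37.0%) were higher and 5 (18.5%) lower, against 30.1% and 16.8% of all genes. The neighbours Sgce and Peg10, which share a promoter region, had 15.1 per kilobase in KO and 1.10 in WT, and 14.9 and 1.10. H19 had 40.5 and 18.4, Phlda2 40.3 and 14.4, and Slc22a2 15.9 and 38.3. The ribosomal repeat row RN45S, left out of the highest levels named above, had 1072.4 per kilobase in KO and 759.2 in WT, a 1.41-fold difference, and held 0.360% and 0.320% of all promoter signal. Among classes of transcription factor named in the table, T-box genes (n = 12) had a median ratio of 0.62, homeobox genes (n = 130) 0.61, and E2F genes (n = 10) -0.04.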
